A study of Mus musculus with 2 samples.

Results

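The ceramide synthases Cers2, Cers3, Cers4, Cers5 and Cers6 were followed across the immune cells of the mouse colon. They were the rows of both count matrices that carried these 5 symbols, among 31053 genes, and 4 of the 5 had at least 1 UMI (a molecular tag that counts each captured RNA molecule once). Single-cell RNA-seq had been carried out on colon cells of bone marrow chimeras, in which CD45.1 recipient mice had been engrafted with CD45.2 donor marrow. The donors were IL-10R KO (Il10rb-deficient, called KO here) or IL-10R/CerS2 DKO (called DKO here), so both groups lacked the IL-10 receptor in donor cells and they differed by the loss of Cers2, which was made by CRISPR. Cers2 was lost from all blood-forming donor cells and not from macrophages alone, and the recipients' own tissue carried neither deletion. The sort used the myeloid surface proteins CD11b, CD11c and CD64, together with CD45.2 (the donors' form) by the series' design text or CD45 (on donor and recipient immune cells alike) by the study's methods. There was 1 library per genotype, and the number, age and sex of the mice behind each were not given in the sources used here, so genotype, mouse, sort and library cannot be told apart. No test between genotypes was possible. All intervals below are 95% intervals of counting error only, exact unless stated.

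Ceramide synthases join a sphingoid base to a fatty acid carried by coenzyme A, which gives dihydroceramide and, after desaturation, ceramide. Each enzyme prefers acyl chains of certain lengths. CerS2 makes very long chain ceramides, CerS3 acts on ultra long chains and is known from skin and testis, CerS4 prefers long to very long chains, and CerS5 and CerS6 make ceramides with C16 chains. Macrophages use ceramide as the precursor of sphingomyelin and glycosphingolipids. The study asked whether loss of very long chain ceramides limits inflammation when IL-10 signalling is absent. Whether the other ceramide synthases differed in RNA level where Cers2 was missing is the question addressed here.

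In the mouse annotation of build GRCm38 (mm10) all 5 members were protein-coding genes. Cers2 (ENSMUSG00000015714) lay at chr3:95314791-95323599 on the plus strand, and its annotated span overlapped the minus-strand genes Setdb1 and 6330562C20Rik. Cers6 (ENSMUSG00000027035) was the longest, at chr2:68861441-69114282 on the plus strand, and overlapped 6 unconfirmed transcript models on the same strand. Cers4 (ENSMUSG00000008206) lay at chr8:4493026-4531680 on the plus strand, Cers5 (ENSMUSG00000023021) at chr15:99734881-99772885 on the minus strand and Cers3 (ENSMUSG00000030510) at chr7:66743504-66823691 on the plus strand. The RefSeq promoter table of build GRCm38.p6 matched all 5 members. The 250 bases before the first listed start of the 4 expressed members are printed here so that genes with unlike patterns over cell classes (Cers6 in myeloid cells, Cers4 mainly outside them, Cers2 and Cers5 in all classes) can be set side by side. Capitals mark matches of any of 3 motifs, each searched on both strands and without overlap in these windows. The E-box was searched as CACGTG. The letters sought for the promoter element named CCAAT box were those of its name. For the element known as the GC box, bound by factors of the Sp family, the search used GGGCGG. The motifs were chosen after the sequences had been read.
Cers2 (chr3:95314940-95315189, plus strand): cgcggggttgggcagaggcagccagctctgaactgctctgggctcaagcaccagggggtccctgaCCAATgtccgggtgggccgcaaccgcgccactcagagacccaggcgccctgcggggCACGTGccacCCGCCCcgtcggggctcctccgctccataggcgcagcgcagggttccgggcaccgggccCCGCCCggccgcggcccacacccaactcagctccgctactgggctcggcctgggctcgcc
Cers6 (chr2:68861191-68861440, plus strand): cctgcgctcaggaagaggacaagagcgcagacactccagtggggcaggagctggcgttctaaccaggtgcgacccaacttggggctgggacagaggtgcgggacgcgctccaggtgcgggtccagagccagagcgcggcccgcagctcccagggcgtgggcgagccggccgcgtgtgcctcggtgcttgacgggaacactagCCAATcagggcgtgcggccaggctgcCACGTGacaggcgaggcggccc
Cers4 (chr8:4493155-4493404, plus strand): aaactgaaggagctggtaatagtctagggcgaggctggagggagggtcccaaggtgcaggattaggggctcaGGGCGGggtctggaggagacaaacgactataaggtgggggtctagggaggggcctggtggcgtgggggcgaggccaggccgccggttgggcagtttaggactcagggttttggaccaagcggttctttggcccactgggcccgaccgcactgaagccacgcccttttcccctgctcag
Cers5 (chr15:99772516-99772765, minus strand): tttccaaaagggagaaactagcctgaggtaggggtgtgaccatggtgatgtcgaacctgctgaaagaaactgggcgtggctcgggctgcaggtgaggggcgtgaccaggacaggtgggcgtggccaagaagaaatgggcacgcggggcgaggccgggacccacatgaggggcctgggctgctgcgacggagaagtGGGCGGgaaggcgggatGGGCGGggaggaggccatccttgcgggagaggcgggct
Cers2 and Cers6 each held 1 E-box, a motif found in 6.02% of 32851 windows of the same length, and 1 CCAAT box, found in 33.8% of them. Cers4 and Cers5 held neither. The GC box, found in 32.7% of windows, occurred 2 times before Cers2, 2 times before Cers5, 1 time before Cers4 and not before Cers6. All 4 windows were rich in G and C, from 63.2% for Cers4 to 74.8% for Cers2, against a median of 52.4% over all windows. Before a second listed start of Cers2 (chr3:95318580-95318829) the window held 0 matches of each motif, at 54% G and C. The printed windows of Cers2, Cers4 and Cers5 lay within the gene spans given above, because the RefSeq starts lay inside those spans. These matches are descriptions of letters, not of bound sites.

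The KO library held 12549471 UMIs over 2584 barcodes and the DKO library 3414944 UMIs over 742, so KO values carry less counting error. After the study's cell filter 2443 KO and 730 DKO cells were kept, with a median of 4715 and 3722 UMIs per cell, and 1 barcode sequence occurred in both libraries. The labels call the cells colon macrophages, but the markers showed a mixture. Monocyte/macrophage-like clusters held 1513 KO cells (61.9%) and 316 DKO cells (43.3%). All 14 listed markers had a UMI there, as they also did in the dendritic cell-like class. Under the naming rule these clusters met 12, 8, 12 and 5 of the 14, the 5 in the cluster led by Cxcl3, Arg1 and Nos2. B cell-like cells numbered 230 and 166, neutrophil-like cells 161 and 48, and dendritic cell-like cells 108 and 54. The dendritic cell-like cluster met 7 of 10 dendritic cell markers, but its monocyte/macrophage markers summed to more CPM in both libraries. A cluster led by Xcl1, Nkg7, Klrd1 and Gzma (141 and 67 cells) and a cluster led by Il17a, Icos, Ctla4 and Tnfrsf4 (147 and 46 cells) each held T cell as well as innate lymphoid and NK markers. Both stayed without a cell type name, as did a cluster led by Spink4, Agr2 and histone genes (35 and 8 cells) and a low-UMI cluster (108 and 25 cells, median 738 UMIs). B cells, T cells and neutrophils were those the sort was meant to leave out. Il10rb, the gene missing in both donors, was still counted, with 74 KO UMIs (5.96 CPM) and 14 DKO UMIs (4.12 CPM). The position of its 3′ tag relative to the targeted part was not given, so it was no check of the labels.

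Cers2 was the check of the DKO label. Over all kept cells it had 552 UMIs in KO, or 44.5 CPM (the UMIs of a gene per 1000000 UMIs of its class; 40.8 to 48.3), in 447 cells, against 2 UMIs in DKO (0.588 CPM, 0.0712 to 2.12). The log2 ratio of DKO over KO was -5.92 (-9.29 to -4.38). At the KO level of each class 133 UMIs would have been found in DKO. In monocyte/macrophage-like cells the KO library had 442 UMIs (51.0 CPM) and the DKO library 0 where 90.0 were expected at the KO level, which put Cers2 lower by at least 4.91 on the log2 scale when 3 UMIs in the DKO class are taken as the floor. B cell-like cells had 19 UMIs in KO and 0 in DKO, at least 4.30-fold lower on the same floor, and the Xcl1 Nkg7 cluster had 24 and 0, at least 3.48-fold lower. In neutrophil-like cells 8 UMIs in KO stood against 0 in DKO, where only 2.26 were expected, so a loss was not detectable at that depth.

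The 2 kept DKO cells with a Cers2 UMI lay in clusters other than the monocyte/macrophage-like ones. The first lay in the Il17a Icos cluster, had 2835 UMIs in all, 2 of them of Cd3e (a T cell receptor subunit), and none of Lyz2 (lysozyme, the macrophage marker of the study). The second was dendritic cell-like with 9977 UMIs, among them 62 of Lyz2 and 174 of Cd74. At a lower clustering resolution, where dendritic cell-like cells were not separated, the monocyte/macrophage-like class held 1 DKO Cers2 UMI. Another DKO barcode with 1 Cers2 UMI had 12.8% mitochondrial UMIs and had been filtered out. Whether these were recipient cells, free RNA or misassigned molecules was not tested.

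**Figure D1:**
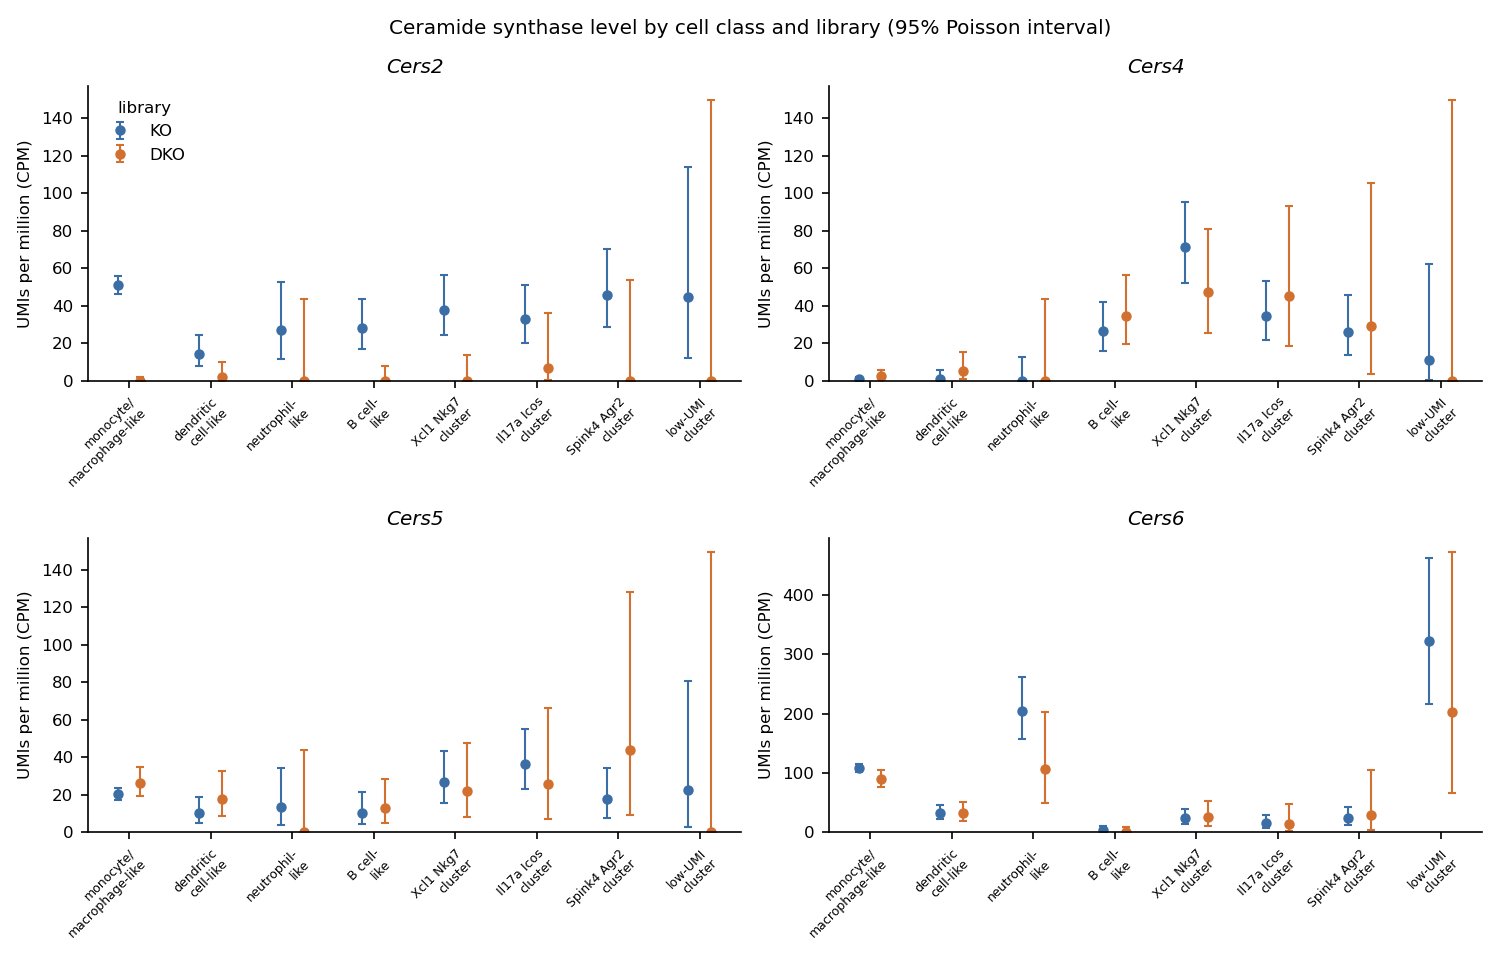
Level of each expressed ceramide synthase (vertical axis, CPM; scales differ between genes) in 8 cell classes of the KO and DKO libraries. Points are class totals of 1 library and bars exact 95% Poisson intervals. Cers2 is at or near 0 in every DKO class, Cers4 is highest in the Xcl1 Nkg7 cluster and Cers6 in neutrophil-like, monocyte/macrophage-like and low-UMI cells.

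Across the KO classes Cers2 was expressed broadly. Its level was 51.0 CPM (46.3 to 55.9) in monocyte/macrophage-like cells and 45.8 CPM in the Spink4 Agr2 cluster. It was 44.5 CPM (4 UMIs, 12.1 to 114) in the low-UMI cluster and 37.9 CPM in the Xcl1 Nkg7 cluster. The Il17a Icos cluster followed at 33.1 CPM, B cell-like cells at 27.9 CPM, neutrophil-like cells at 26.8 CPM and dendritic cell-like cells at 14.4 CPM. No class differed from its neighbour in this order beyond counting error. Against the monocyte/macrophage-like level the ratio was 0.548 (0.327 to 0.866) in B cell-like and 0.282 (0.153 to 0.479) in dendritic cell-like cells, while the intervals of the other 5 classes included 1.

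Cers4 was counted at no more than 5.30 CPM in monocyte/macrophage-like and dendritic cell-like cells of either library. It was higher in the lymphocyte clusters and in the Spink4 Agr2 cluster. In KO the Spink4 Agr2 cluster (median 12795 UMIs per cell) held markers of unlike cell types. Monocyte/macrophage markers summed to 2872 CPM there, epithelial markers to 2366 CPM and innate lymphoid and NK markers to 2287 CPM. Plasma cell markers summed to 2202 CPM and T cell markers to 1812 CPM. Which of its cells carried the Cers4 UMIs was not tested. The interval of DKO dendritic cell-like cells reached 15.5 CPM. Neutrophil-like cells of both libraries had 0 Cers4 UMIs, with an upper limit of 12.4 CPM (KO) or 43.7 CPM (DKO). The latter limit lay above the DKO B cell-like level, so a low Cers4 level in DKO neutrophil-like cells was not shown. In KO Cers4 had 45 UMIs in the Xcl1 Nkg7 cluster (71.1 CPM, 51.9 to 95.2) and 21 in the Il17a Icos cluster (34.7 CPM). B cell-like cells had 18 (26.5 CPM) and the Spink4 Agr2 cluster 12 (26.2 CPM). All 1513 monocyte/macrophage-like cells together had 7 UMIs (0.807 CPM, 0.324 to 1.66), and neutrophil-like cells had 0. The Xcl1 Nkg7 cluster stood above the next class beyond counting error. Relative to the monocyte/macrophage-like level the ratio was 88.2 (39.5 to 232) in the Xcl1 Nkg7 cluster, 32.8 (13.1 to 92.9) in B cell-like cells and 32.4 (11.8 to 97.2) in the Spink4 Agr2 cluster. The DKO library had the same contrast, with 47.2 CPM in the Xcl1 Nkg7 cluster, 45.3 CPM in the Il17a Icos cluster, 34.6 CPM in B cell-like cells, 29.2 CPM (2 UMIs) in the Spink4 Agr2 cluster and 2.27 CPM in monocyte/macrophage-like cells.

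Cers5 was low and spread over all classes. In KO it lay between 10.3 CPM in dendritic cell-like and B cell-like cells and 36.4 CPM in the Il17a Icos cluster, with 20.2 CPM (17.3 to 23.4) in monocyte/macrophage-like cells. No neighbours in the order differed beyond counting error, and the Il17a Icos cluster was 1.80 times (1.10 to 2.82) the monocyte/macrophage-like level. In DKO 3 of the 8 classes had 6 or more Cers5 UMIs besides the monocyte/macrophage-like cells, at 13.0 to 21.8 CPM.

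Cers6 was the most abundant member in myeloid cells. In KO it reached 204 CPM (61 UMIs, 156 to 263) in neutrophil-like cells and 108 CPM (939 UMIs, 101 to 115) in monocyte/macrophage-like cells, against 32.9 CPM in dendritic cell-like cells and 2.94 CPM (2 UMIs) in B cell-like cells. The low-UMI cluster had 323 CPM (29 UMIs), and the lymphocyte clusters 23.7 and 14.9 CPM. Neutrophil-like cells were 1.89 times (1.43 to 2.45) and B cell-like cells 0.0272 times (0.00328 to 0.0984) the monocyte/macrophage-like level. Each of the steps from neutrophil-like to monocyte/macrophage-like and from there to dendritic cell-like cells was larger than counting error. In DKO the level was 107 CPM (9 UMIs) in neutrophil-like, 90.0 CPM in monocyte/macrophage-like and 31.8 CPM in dendritic cell-like cells, with 0 UMIs in B cell-like cells. For comparison with free RNA, Lyz2 was at 3088 CPM in KO monocyte/macrophage-like and 11.8 CPM in KO B cell-like cells.

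Cers3 had 0 UMIs in both libraries, which at a floor of 3 UMIs allowed up to 0.242 CPM in the kept KO cells and 0.882 CPM in the kept DKO cells. Cers1, the remaining ceramide synthase and no member of the set, also had 0.

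The share of cells with a UMI gave the same picture at lower resolution. In KO monocyte/macrophage-like cells (median 5499 UMIs per cell) a Cers6 UMI was found in 37.6% of cells, a Cers2 UMI in 23.7%, a Cers5 UMI in 10.8% and a Cers4 UMI in 0.330%. In KO B cell-like cells (median 2434 UMIs) the shares were 0.870% for Cers6, 7.39% for Cers2, 2.61% for Cers5 and 7.39% for Cers4. With every cell thinned to 2000 UMIs, which left out 92 KO monocyte/macrophage-like and 55 KO B cell-like cells, Cers6 was found in 17.7% (15.8 to 19.8) of the former and 0.571% of the latter, and Cers4 in 0.141% and 5.14% (2.38 to 9.54). No cell held more than 7 UMIs of any member.

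UMIs of 3′ tags were not scaled by length, and the members were added within a class. The shares are those of counted UMIs, and any difference between the genes in capture or counting was not tested. In KO monocyte/macrophage-like cells the family had 1563 UMIs (180 CPM, 171 to 189), of which Cers6 made up 60.1% (57.6 to 62.5), Cers2 28.3% (26.1 to 30.6), Cers5 11.2% and Cers4 0.448%. In neutrophil-like cells Cers6 held 83.6% of 73 UMIs. In B cell-like cells Cers2 held 41.3% and Cers4 39.1% of 46 UMIs, and in the Xcl1 Nkg7 cluster Cers4 held 44.6% (34.7 to 54.8) of 101 UMIs. In DKO monocyte/macrophage-like cells 209 UMIs remained (118 CPM), and Cers6 made up 76.1% (69.7 to 81.7) and Cers5 22.0% (16.6 to 28.2) of them.

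**Figure D2:**
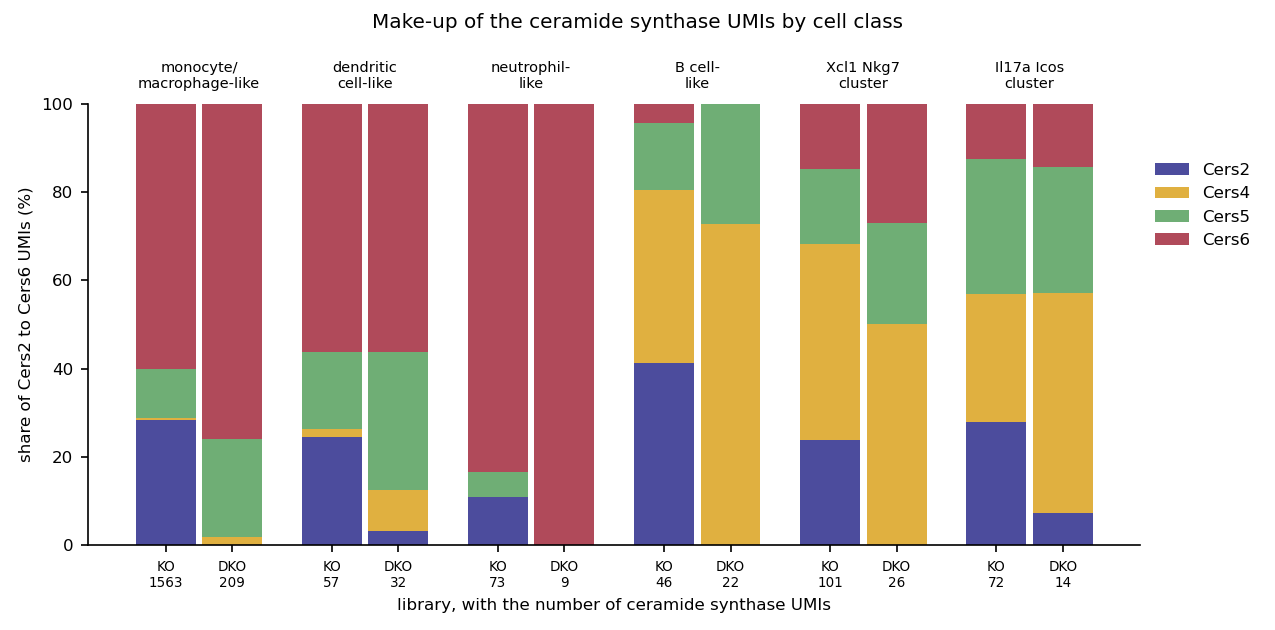
Share of the Cers2 to Cers6 UMIs taken by each member (vertical axis, %) in 6 cell classes, with KO and DKO bars side by side and the number of UMIs under each bar. Cers6 takes 60.1% of the KO and 76.1% of the DKO monocyte/macrophage-like UMIs, while Cers4 takes 39.1% and 72.7% of the B cell-like UMIs.

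Where Cers2 was lost, the other members did not make up its UMIs in monocyte/macrophage-like cells. Their sum (Cers3 to Cers6) came to 1121 KO and 209 DKO UMIs. The log2 ratio of DKO over KO was -0.12 (-0.35 to 0.09, with 0.5 added to each count), and the family as a whole was at -0.60 (-0.82 to -0.40). Under TMM scaling, which centres the ratios of most genes on 0, the sum was at -0.24 (-0.47 to -0.03). Of the 4 members with at least 10 UMIs over both libraries, 1 (Cers2) was at least 1.5-fold lower in DKO, where 10.1% of 10770 genes were, and 1 (Cers4) at least 1.5-fold higher, where 15.0% were. Cers4 rested on 7 and 4 UMIs, and its log2 ratio of 1.56 had an interval from -0.73 to 3.46. B cell markers summed to 37.1 CPM in the KO class and 45.9 CPM in the DKO class (9 and 5 of 9 markers above 0) and T cell markers to 17.1 and 8.49 CPM (10 and 5 of 10), and their part in the Cers4 UMIs was not tested.

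Cers5 was counted 175 times in the KO class (20.2 CPM) and 46 times in the DKO class (26.0 CPM, 19.1 to 34.7), which gave a log2 ratio of 0.38 (-0.13 to 0.84). The share of cells with a Cers5 UMI was 10.8% in both libraries, or 4.01% (3.05 to 5.17) and 6.21% (3.72 to 9.63) after thinning. A difference was thus not detectable at this depth, and the interval allowed a ratio up to 0.84 on the log2 scale.

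For Cers6 the class held 939 KO UMIs (108 CPM, 101 to 115) and 159 DKO UMIs (90.0 CPM, 76.6 to 105), with a log2 ratio of -0.26 (-0.52 to -0.02). The median over all 10770 genes was 0.10, and -0.02 under TMM scaling, where Cers6 was at -0.38. A Cers6 UMI was found in 17.7% (15.8 to 19.8) of KO and 14.1% (10.3 to 18.7) of DKO cells after thinning to 2000 UMIs. Neutrophil markers summed to 407 CPM in the KO class and 305 CPM in the DKO class (9 and 8 of 10 markers above 0), and their part in the Cers6 difference was not tested.

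The monocyte/macrophage-like cells were themselves a mixture, and the libraries drew on it unequally. Clustered again without the ceramide genes they fell into 6 clusters. KO cells lay mostly in cluster 0 (507 cells, 70 in DKO, led by Dnase1l3, Acp5 and Gpnmb) and cluster 1 (427 and 85, led by the monocyte genes Vcan and Ly6c2), and the largest number of DKO cells in cluster 2 (318 and 134, led by Retnla, Ccl7 and Mrc1). Cluster 3 (Cxcl3, Arg1 and Nos2) held 184 KO cells and 1 DKO cell, cluster 4 (Ace, Spn and Adgre4) 42 and 22, and cluster 5 (Ccl8, Ccl24 and Apoe) 35 and 4.

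Cers6 varied more over these clusters than Cers2 did. In KO it was at 202 CPM (184 to 222) in cluster 1 and 185 CPM in cluster 4, at 115 CPM in cluster 2, 68.8 CPM in cluster 0, 49.8 CPM in cluster 3 and 11.5 CPM (1 UMI) in cluster 5. Clusters 1 and 4 could not be told apart, nor could 3 and 5, whereas the steps between 4, 2, 0 and 3 exceeded counting error. Cers2 in KO was highest in the same monocyte cluster, cluster 1, at 75.2 CPM (63.9 to 87.9). Clusters 3, 4 and 0 followed at 57.9, 44.5 and 41.1 CPM, then clusters 2 and 5 at 37.6 and 23.0 CPM. No neighbours in that order differed beyond counting error. The interval of cluster 1 nonetheless lay above those of cluster 0 (34.7 to 48.3 CPM) and cluster 2 (28.7 to 48.4 CPM). Cers5 in KO ranged between 11.5 CPM (cluster 5) and 27.0 CPM (cluster 2), again with no neighbours apart.

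**Figure D3:**
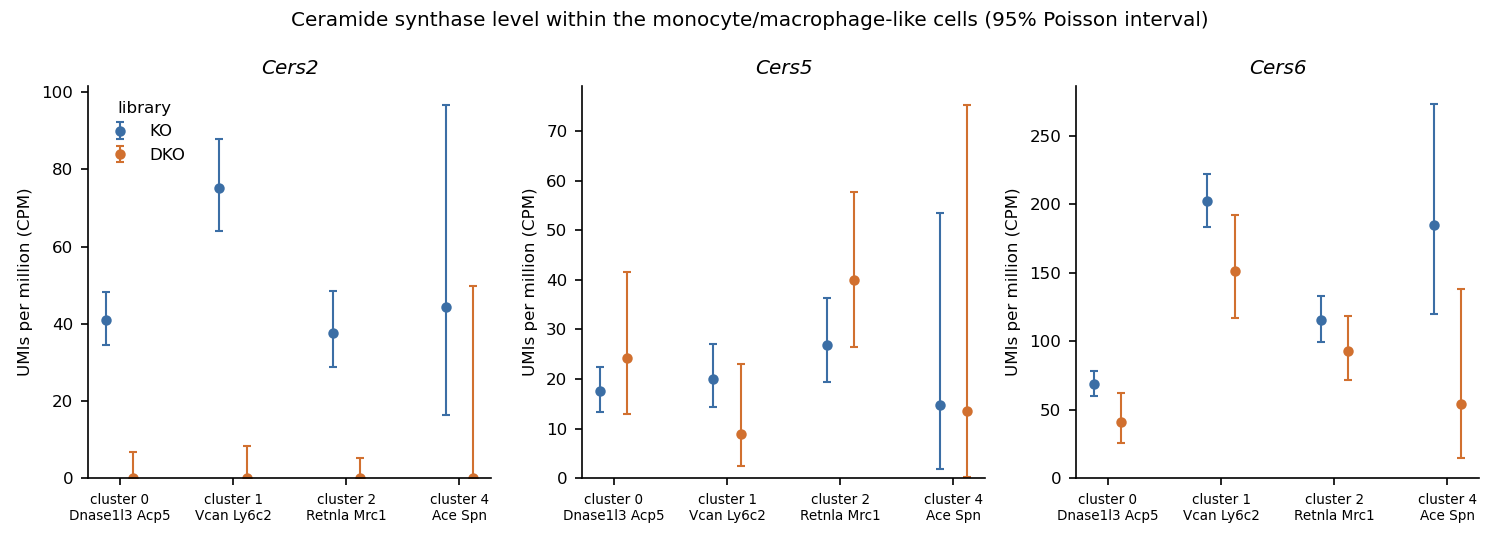
Level of Cers2, Cers5 and Cers6 (vertical axis, CPM) in the 4 clusters of monocyte/macrophage-like cells with at least 10 cells in each library, with exact 95% Poisson intervals. Cers6 lies between 68.8 and 202 CPM in KO and between 41.2 and 151 CPM in DKO. It is lower in DKO in each of the 4 clusters, but the interval of its ratio includes 0 in cluster 2. Cers2 is at 0 in all 4 DKO clusters.

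Within clusters the Cers6 ratio lay further below 0 than in the class total. KO and DKO levels were 68.8 and 41.2 CPM in cluster 0, and 202 and 151 CPM in cluster 1. They were 115 and 92.7 CPM in cluster 2, and 185 and 54.1 CPM (4 UMIs) in cluster 4. The interval of the ratio lay below 0 in clusters 0, 1 and 4 and included 0 in cluster 2 (-0.31, -0.75 to 0.10). The rate ratio combined within the 6 clusters (Mantel-Haenszel, with an approximate interval; chosen after the data were seen) was -0.48 on the log2 scale (-0.72 to -0.23), and it lay between -0.56 and -0.42 when any of the 6 clusters was left out. At the KO level of each cluster 221 Cers6 UMIs would have been found in DKO, against 159 (135 to 186). Of the 3 members with at least 100 UMIs, Cers6 had a combined interval below 0 and Cers2, with no DKO UMI, had no such interval. The share of 6712 genes with an interval below 0 or no DKO UMI was 10.5%, and 11.8% had an interval above 0, among them 0 members. The median gene was at 0.02, and 7.27% of genes were at or below the Cers6 value. The same combination gave 0.23 (-0.26 to 0.73) for Cers5, 1.46 (-0.32 to 3.24) for Cers4 and -0.33 (-0.54 to -0.11) for Cers3 to Cers6 together.

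Cers2 was at 0 UMIs in all 6 DKO clusters, with 85.5 expected at the KO levels. On the floor of 3 UMIs it was at least 7.31-fold lower in cluster 0, 11.1-fold lower in cluster 1 and 8.79-fold lower in cluster 2. The intervals of Cers5 in KO and DKO overlapped in each of these clusters, at 19.5 to 36.3 CPM and 26.5 to 57.7 CPM in cluster 2, 13.5 to 22.5 CPM and 13.0 to 41.6 CPM in cluster 0, and 14.4 to 27.0 CPM and 2.46 to 23.1 CPM in cluster 1.

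Pooled over all kept cells, Cers4 and Cers6 had ratios further from 0 than within classes. Cers4 was counted 105 times in KO (8.46 CPM) and 45 times in DKO (13.2 CPM), which gave a log2 ratio of 0.65 (0.11 to 1.16), while B cell-like cells were 9.41% of KO and 22.7% of DKO cells. Combined within the 8 classes its ratio was 0.13 (-0.39 to 0.64). Cers6 was at 88.5 CPM in KO and 59.4 CPM in DKO, with a pooled log2 ratio of -0.57 (-0.80 to -0.36), and -0.29 (-0.51 to -0.07) within classes. Cers5 was at 0.17 pooled (-0.23 to 0.54) and 0.27 (-0.11 to 0.65) within classes. The sum of Cers3 to Cers6 was at -0.30 (-0.48 to -0.13) pooled and -0.13 (-0.31 to 0.05) within classes, with 322 DKO UMIs against 350 expected at the KO class levels.

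**Figure D4:**
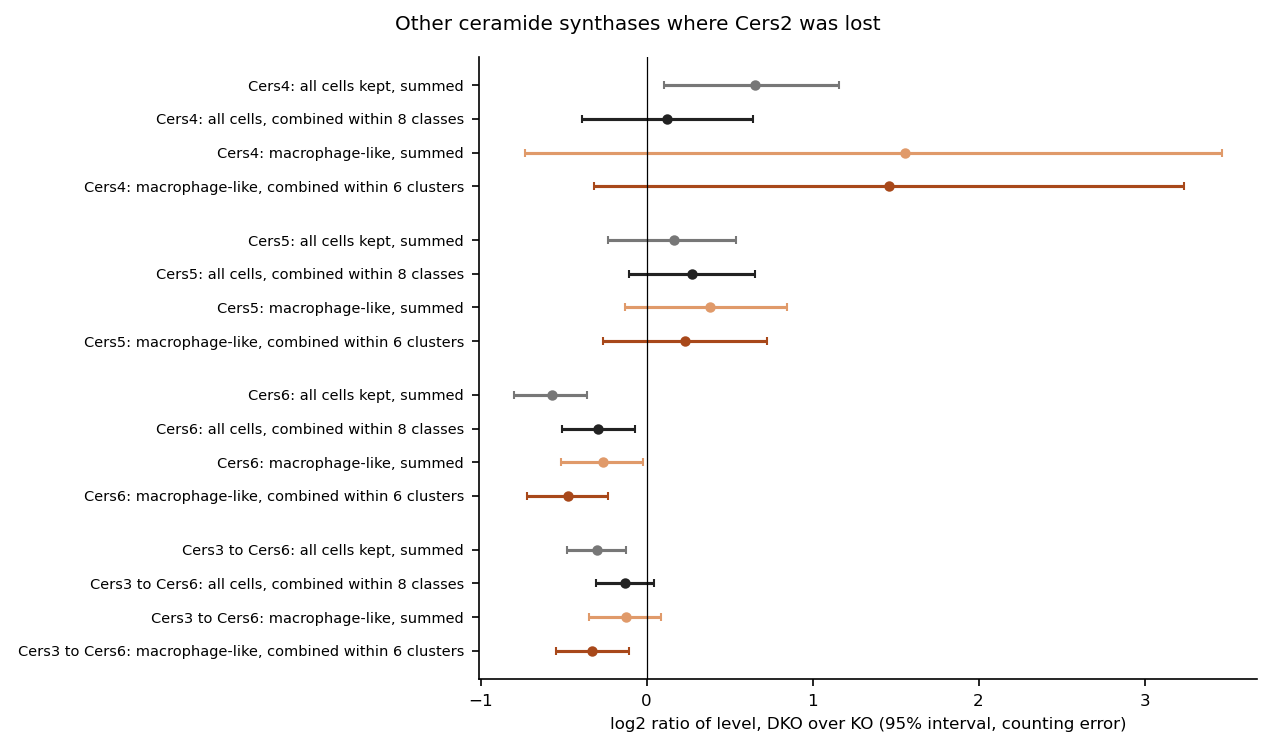
Log2 ratio of the level in DKO over KO (horizontal axis) for Cers4, Cers5, Cers6 and their sum with Cers3, pooled and combined within classes or clusters, with 95% intervals of counting error. Cers4 lies at 0.65 over all cells and 0.13 within classes, and Cers6 lies below 0 in all 4 forms.

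Outside the monocyte/macrophage-like cells no single class gave a Cers4, Cers5 or Cers6 ratio whose interval left out 0. In neutrophil-like cells Cers6 stood at 204 CPM (KO) and 107 CPM (DKO), with a log2 ratio of -0.87 (-2.13 to 0.08). The sum of Cers3 to Cers6 in these cells, 65 KO and 9 DKO UMIs, was at -0.96 (-2.22 to -0.02). How many of all genes had such an interval in this class was not counted. Neutrophil markers summed to 89723 CPM (KO) and 131423 CPM (DKO), all 10 above 0 in both. Innate lymphoid and NK markers summed to 43.6 and 1161 CPM (3 and 2 of 10 above 0). The part of these marker differences in the neutrophil-like ratios was not tested. Cers4 was at 71.1 and 47.2 CPM in the Xcl1 Nkg7 cluster (-0.55, -1.61 to 0.32) and at 26.5 and 34.6 CPM in B cell-like cells (0.39, -0.68 to 1.44). Plasma cell markers in the B cell-like class summed to 6180 CPM (KO, 6 of 6 above 0) and 1069 CPM (DKO, 5 of 6), and B cell markers to 5291 and 6124 CPM (all 9 in both), and their part in the Cers4 level and share was not tested. Combined over the 7 classes other than monocyte/macrophage-like, Cers4 was at 0.02 (-0.52 to 0.56), Cers5 at 0.10 (-0.54 to 0.75) and Cers6 at -0.39 (-0.89 to 0.10). The dendritic cell-like cells were not alike in the libraries. Monocyte/macrophage markers summed to 2081 CPM (KO) and 5973 CPM (DKO), with all 14 above 0 in both. Dendritic cell markers summed to less, at 1514 CPM (KO) and 2293 CPM (DKO), with all 10 above 0 in both. Cers5 there (10.3 and 17.7 CPM, 10 UMIs each) stands beside these differences, whose part was not tested.

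The other genes of sphingolipid metabolism were taken from a list of 43 genes present in the matrices, of which 33 had at least 10 UMIs in monocyte/macrophage-like cells. At least 1.5-fold higher in DKO were 5 (15.2%, beside 15.0% of all genes) and at least 1.5-fold lower were 2 (6.06%, beside 10.1%). The median log2 ratio was 0.22 for the list and 0.10 for all genes, and 24 of the 33 lay above 0, as did 60.7% of all genes. Of all calls 59.9% were higher in DKO, and 47.4% under TMM scaling.

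At the first step, serine palmitoyltransferase and its regulators, 1 of 6 genes was past the fold upward and 1 downward. Sptlc2, its catalytic subunit and the most abundant gene of the step, stood at 59.0 CPM (KO) and 57.2 CPM (DKO; -0.04, -0.37 to 0.26). Kdsr, which reduces ketosphinganine in the next step, was counted 68 times in KO (7.84 CPM) and 24 times in DKO (13.6 CPM), which gave 0.81 (0.06 to 1.48). Degs1, the desaturase that turns dihydroceramide into ceramide, was at 73.2 and 81.0 CPM (0.15, -0.13 to 0.41). Kdsr was 1 of the 2 list genes past the fold whose interval also left out 0. The share of all genes that passed both was not counted, so this count of 2 has no background.

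Among 11 tested genes of very long chain acyl-CoA supply, which provide the substrate of CerS2, 1 was past the fold upward and 0 downward. Dbi, the acyl-CoA binding protein and the most abundant, stood at 255 CPM (KO) and 193 CPM (DKO; -0.40, -0.58 to -0.24), and at -0.49 (-0.66 to -0.33) within clusters. The step as a whole had a median of 0.13. Elovl1, an elongase of very long chains, and Hsd17b12, a reductase of the elongation cycle, lay the other way without passing the fold, at 0.47 (0.13 to 0.78) and 0.48 (0.22 to 0.73) in the class and 0.39 and 0.36 within clusters; these genes were chosen after their values were seen.

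Of the 6 tested genes that use ceramide, 1 was past the fold. Cerk, the kinase that makes ceramide 1-phosphate, was counted 282 times in KO (32.5 CPM) and 99 times in DKO (56.1 CPM), at 0.79 (0.44 to 1.12) in the class and 0.61 (0.27 to 0.95) within clusters. Ugcg, which makes glucosylceramide, was at 113 and 125 CPM (0.15, -0.07 to 0.36). Of 8 genes of ceramide release and breakdown 1 was past the fold in each direction. Asah1, the lysosomal acid ceramidase, was at 111 and 136 CPM (0.29, 0.08 to 0.49) in the class. Within clusters Asah1 was at 0.18 (-0.03 to 0.39), an interval that included 0.

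**Figure D5:**
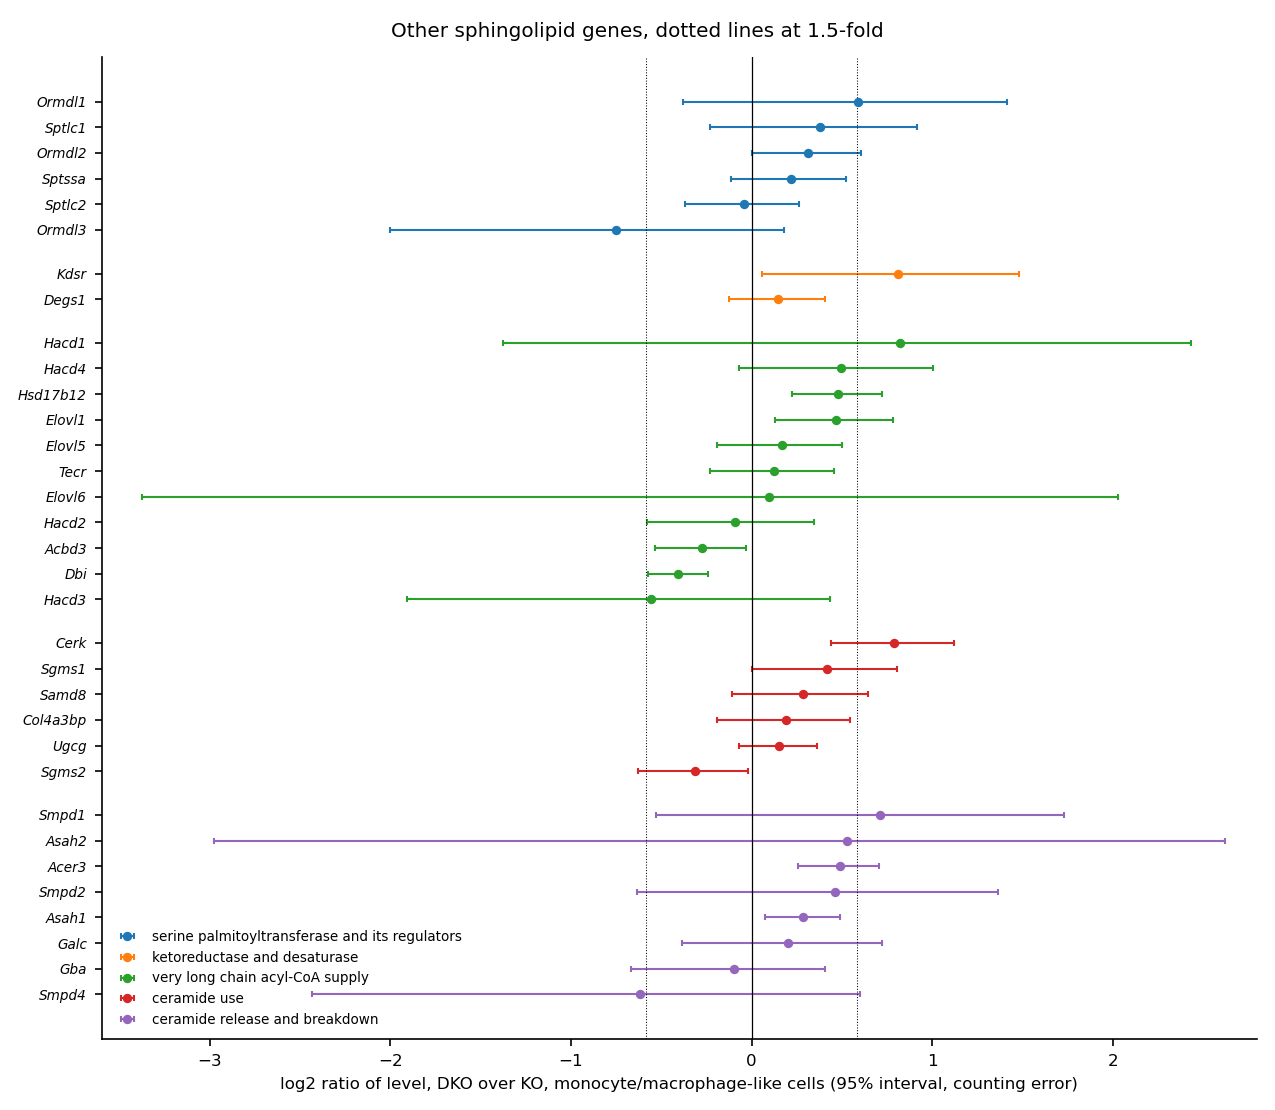
Log2 ratio of the level in DKO over KO (horizontal axis) in monocyte/macrophage-like cells for the 33 tested genes of sphingolipid metabolism outside the ceramide synthases, grouped by step, with exact 95% intervals and dotted lines at 1.5-fold. Kdsr at 0.81 and Cerk at 0.79 are past the upper line with intervals above 0.

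The genes most like each member were sought over the 4 named KO classes by the correlation of log2(CPM + 10), among 5631 genes. For Cers2 these were Bcl6, a transcriptional repressor (r = 0.999), Pisd (0.997) and Capg (0.996). For Cers4 they were Ighm, the heavy chain of IgM, Gimap6 and Sh2d2a, for Cers5 BC005537, Ecm1 and Fbxo28, and for Cers6 the chemokine gene Cxcl2, Midn and Lst1, all of these above 0.999. With 4 points from 1 library many genes reach such values. Over 10 KO clusters of at least 50 cells, a form added after the data were seen, Gimap5 (0.986), Esco1 (0.977) and Gpbp1l1 (0.970) were most like Cers4, Myo1f (0.971), Trafd1 (0.966) and Parp14 (0.959) most like Cers6, and Fbxo33 (0.921), Serinc1 (0.904) and Kif1b (0.904) most like Cers5. Cers4 and Cers6 were opposed, at -0.58, and Cers2 and Cers6 were at 0.42. All points shared a library, and the correlations are descriptions.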

How the data were processed

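Cells were colon cells of 2 chimera groups with 1 library each, grouped from the genotype label. The authors deposited unnormalised UMI counts for each gene and cell barcode, aligned and counted on mm10 by Cell Ranger 6.0.1 from 3′ v3.1 droplet libraries, and the study analysed them in Seurat 4.3.0. Any correction for free RNA or doublets by the authors was not given in the sources used here. Their imputation and rank test over cells were not repeated.

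The cell filter of the study (300 to 5000 genes, no more than 10% mitochondrial UMIs) was applied, and cells were clustered in Seurat 5.3.0 (R 4.3.3) on 2000 variable genes (ceramide synthases and the pathway list left out), 30 components, 20 neighbours and a resolution of 0.3, without batch correction. A cluster took a class name when at least 3 markers of the class reached 25% of their highest cluster level in at least 20% of its cells, and not when markers of another class led its 10 leading genes or when its median UMI count was under that of its samples divided by 3 with no marker among them. Cell type names were rebuilt and can differ from those of the study. Doublets stayed in. Scrublet (scanpy 1.11.5) called 6 KO and 1 DKO barcodes, too few to have worked, and their removal was an alternative.

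Counts were summed per class and library and divided by the class total (CPM). Intervals were exact Poisson, Clopper-Pearson or conditional binomial (scipy 1.17.1). Ratios had 0.5 added to each count, and genes needed 10 UMIs over both libraries. Named were all members, the list genes past 1.5-fold whose interval left out 0, the most abundant gene of each step and the 3 genes most like each member (over KO clusters, those of Cers2 are not reported here). TMM factors came from edgeR 4.0.16, which was used for scaling only. Scripts were tested on simulated data. The members, lists and markers were chosen with earlier results of these data known.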

Additional observations from a re-analysis of the deposited data

How the results depend on the processing

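Of 196 recomputed values of 44 results, 167 stayed within the counting interval of the reported value (or, for counts of genes, within 1.5-fold). Another 29 moved and 0 reversed. A reversal could be called only for a ratio whose reported interval left out 0, here that of Cers6 in monocyte/macrophage-like cells. For all other results the 0 was fixed beforehand. Counts of Cers2 UMIs could not change under TMM scaling. No paired analysis was possible because there was 1 library per genotype and the labels carry no replicate numbers, and no replicate could be left out. In DKO monocyte/macrophage-like cells Cers2 had 1 UMI at a resolution of 0.1, where the dendritic cell-like cells and some unnamed cells joined the class, and 0 otherwise. The Cers3 to Cers6 sum was at -0.37 with 4 clusters weighted as in KO (2 clusters with under 10 cells in a library were left out) against -0.12, and its interval lay below 0 with TMM scaling, cells gated one by one, a resolution of 0.1, without the Arg1-high cluster and within clusters. Cers4 had an interval above 0 (1.69, 0.03 to 3.20) with cells gated one by one only. Cers6 kept an interval below 0 in each alternative run. Cers6 combined within clusters was at -0.52 without cluster 1 and -0.56 without cluster 2. List genes past the fold upward are given beside the share of all genes (5 of 33 beside 15.0% reported). They numbered 2 of 35 at a resolution of 0.1 (beside 13.3%) and 3 of 28 at 50 UMIs (beside 8.97%). At 1 UMI they were 8 of 37 (beside 28.1%) and at a fold of 2 they were 0 of 33 (beside 6.22%). Downward, 2 of 33 were reported beside 10.1%. Without the cell filter 1 of 33 was (beside 10.4%), and with cells gated one by one 1 of 34 (beside 9.94%). With 1 count added it was 1 of 33 (beside 8.36%), at 50 UMIs 1 of 28 (beside 6.93%). At a fold of 2 it was 0 of 33 (beside 4.76%). With cells gated one by one by markers, Cers2 in dendritic cell-like cells was at 4.87 CPM in KO and 0 in DKO, Cers4 there at 0 in DKO, Cers6 there at 17.0 CPM in KO, and Cers5 in KO neutrophil-like cells at 3.54 CPM (3.42 CPM without the cell filter). Thinned to 1000 UMIs, KO monocyte/macrophage-like shares were 4.98% for Cers2, 2.02% for Cers5 and 9.82% for Cers6, and DKO shares 2.91% for Cers5 and 9.39% for Cers6. Unthinned they were 23.7%, 10.8% and 37.6% in KO and 10.8% and 31.0% in DKO. Depth set the limit in DKO neutrophil-like cells and for Cers4 in macrophages.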

Other observations

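Genes within 100 kb of Cers2 were looked at after the values of Cers2 had been seen, because a deletion can touch its neighbourhood. Of 12 neighbours in the annotation 8 had at least 10 UMIs in monocyte/macrophage-like cells. Setdb1, a histone methyltransferase gene that overlaps the 3′ end of Cers2 on the other strand, stood at 13.3 CPM (KO) and 13.6 CPM (DKO), with a ratio of 0.06 on the log2 scale (-0.66 to 0.68). Cdc42se1 was at 128 and 119 CPM (-0.10) and Mindy1 at 64.6 and 59.5 CPM (-0.11). The antisense gene 6330562C20Rik, which overlaps the start of Cers2, had 15 KO UMIs and 1 DKO UMI (-1.07, -7.01 to 1.09), and Gabpb2 was at 15.6 and 20.4 CPM (0.40, -0.18 to 0.93). The intervals of all 8 included 0. The share of all genes whose interval included 0 was not counted, so this count has no background. At low counts only a large difference could have been seen, as for Gm16740 (14 KO and 3 DKO UMIs, -2.37 to 1.91).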
